A study of Rattus norvegicus with 15 samples.

Results

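The circadian clock genes of the rat liver were examined as a set of 10: Arntl, Clock, Npas2, Per1, Per2, Per3, Cry1, Dbp, Tef and Nfil3. They were chosen by name, as core clock and output factors, and are the rows of the count table whose gene symbol equals one of these names. All 10 were found among the 32623 genes of the table, and all 10 were among the 14417 genes that passed the filter on low counts. Poly(A) RNA of whole livers of male Wistar rats was sequenced, 1 library per rat. Control rats (n = 4) received no treatment. Rats of the cirrhosis group (n = 5) inhaled carbon tetrachloride (CCl4), a hepatotoxin, for 12 weeks and drank water with phenobarbital (0.35 g/L). Rats of the cirrhosis & eplerenone group (n = 5) had the same 12 weeks of CCl4 and phenobarbital and were given eplerenone, a blocker of the mineralocorticoid receptor, at 100 mg/kg body weight by mouth in hazelnut spread from week 8 on. Livers were taken 7 to 10 days after the last CCl4 under ketamine/xylazine narcosis, the rats lived in a 12/12 h light-dark cycle, and the hour of collection is not given in the sources used here. Phenobarbital was given to both CCl4 groups and not to the controls, hazelnut spread is stated for the eplerenone rats alone, and whole liver holds several cell types. Rats were chosen for sequencing by how well cirrhosis had developed, eplerenone had worked, or both. A control labelled replicate 1 had no column of counts and was not analysed here, so the controls are replicates 2 to 5. The study excluded 1 control that differed from the 4 others in a principal component analysis, without giving its replicate number. The spread of the controls below is that of the 4 with counts.

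The clock of liver cells is a loop of transcription and translation. ARNTL (also called BMAL1) pairs with CLOCK or NPAS2 and binds E-boxes in the genes for the PER and CRY proteins, which return to the nucleus and inhibit that pair. NR1D1 and NR1D2 (REV-ERB) repress Arntl and close another loop, while the bZIP factors DBP and TEF activate, and NFIL3 represses, genes that carry D-boxes. In the liver of nocturnal rodents the Dbp, Tef and Per mRNAs rise during the light phase, whereas Arntl, Clock and Npas2 run in the opposite phase, and many genes of lipid, glucose and xenobiotic metabolism follow the loop. The level of these mRNAs in 1 liver therefore depends on the hour at which it was taken.

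Promoter sequence is shown for the 3 genes whose 250 bases before the start held a motif of the loop. RefSeq (build GRCr8, which is not the rn6 build of the count table) gave a promoter for 9 of the 10 genes, Arntl under the name Bmal1 and Clock with 2 starts. The motifs searched on both strands were the E-box CACGTG, the variant E-box CACGTT, the D-box TTANGTAA, the core of the ROR and REV-ERB element TAGGTCA and the cAMP element TGACGTCA, and none of the matches overlapped another. Capitals mark the matches. The first sequence is chr1:176766078-176766327 on the + strand and carries TAGGTCA 16 to 10 bases before the start of Arntl. The second is chr9:99496994-99497243 on the - strand, read 5′ to 3′, with TTANGTAA 192 to 185 and CACGTT 62 to 57 bases before the start of Per2. The third is chr7:115206577-115206826 on the + strand, with CACGTG 198 to 193 bases before the start of Tef.
Arntl: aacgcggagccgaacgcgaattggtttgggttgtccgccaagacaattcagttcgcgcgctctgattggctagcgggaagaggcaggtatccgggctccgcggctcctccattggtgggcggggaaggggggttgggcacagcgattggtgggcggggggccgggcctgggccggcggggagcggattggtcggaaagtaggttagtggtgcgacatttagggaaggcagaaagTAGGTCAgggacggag
Per2: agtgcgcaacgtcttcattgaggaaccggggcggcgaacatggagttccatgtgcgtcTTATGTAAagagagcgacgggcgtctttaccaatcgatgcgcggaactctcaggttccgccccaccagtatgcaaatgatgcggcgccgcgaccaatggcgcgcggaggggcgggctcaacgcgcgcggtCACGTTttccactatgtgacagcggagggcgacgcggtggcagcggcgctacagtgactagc
Tef: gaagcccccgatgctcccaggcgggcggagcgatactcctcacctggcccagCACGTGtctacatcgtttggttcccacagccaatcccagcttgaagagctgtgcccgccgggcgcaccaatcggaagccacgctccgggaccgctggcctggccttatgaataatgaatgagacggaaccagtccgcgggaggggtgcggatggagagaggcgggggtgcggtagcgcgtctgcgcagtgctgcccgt
The share of all 33469 promoters that held a motif in a window of the same length was 5.59% for CACGTG, 4.07% for CACGTT, 2.04% for TTANGTAA, 2.26% for TAGGTCA and 1.59% for TGACGTCA, so a match is a description of these letters only. No promoter of Cry1 was given.

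Between 16157491 and 21574767 reads per liver were counted on genes, and levels are given in CPM, the count of a gene relative to the size of its library after TMM scaling. A gene with 3 counts stood for 0.121 to 0.191 CPM, a floor that covers counting error only. The liver identity of the samples was checked with 8 hepatocyte markers, whose summed level was 107126 to 197138 CPM in cirrhosis & eplerenone, 137115 to 194465 CPM in cirrhosis and 176005 to 204965 CPM in control livers. Markers of other cells changed between the groups. In cirrhosis against control, 6 of 8 stellate cell and myofibroblast markers, 5 of 5 cholangiocyte markers and 3 of 5 lymphocyte markers were called higher, while 1 of 5 macrophage, 1 of 4 endothelial and 1 of 8 hepatocyte markers were called lower (FDR below 0.05 by edgeR). Of all genes 20.2% were called there, in either direction. The summed stellate markers rose from 134.5 to 229.9 CPM in control to 262.7 to 556 CPM in cirrhosis and 379 to 559 CPM in cirrhosis & eplerenone, and the cholangiocyte markers from 13.9 to 22.3 CPM to 41.5 to 134 CPM and 44.4 to 85.4 CPM. In such mixed tissue fewer cells of a type and less RNA per cell cannot be told apart. No marker of the 6 lists was called between cirrhosis and cirrhosis & eplerenone, where 0.0139% of all genes were. There 1 stellate, 1 macrophage and 1 endothelial marker had an unadjusted p under 0.05, as had 2076 of all 14417 genes. The animal labels of the rats open with a number whose meaning the sources do not state. It is 13 for control replicate 2 and 16 for the other controls. Prefix 15 marks replicates 1 to 3 of cirrhosis and 1 and 2 of cirrhosis & eplerenone, and prefix 20 marks the remaining replicates of both groups. This label prefix and the CCl4 treatment cannot be told apart in comparisons with control.

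The clock genes differed widely between rats of the same group. In 3 livers, namely cirrhosis replicate 4 and cirrhosis & eplerenone replicates 1 and 2, Dbp stood above 100 CPM while Arntl was below 5 CPM. In the other 11 livers Dbp was at most 33.7 CPM and Arntl at least 10.2 CPM. The ratio of Dbp to Arntl CPM, used here to order the livers and not to compare mRNA amounts since gene length was not corrected for, was 192 in cirrhosis & eplerenone replicate 1, 93.5 in cirrhosis replicate 4 and 56.2 in cirrhosis & eplerenone replicate 2. At the other end it was 0.0656, in control replicate 5. The 3 livers with high Dbp were also 3 of the 4 with the fewest counted reads (16157491, 17505772 and 17277282), and the part of depth in the result was not tested.

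**Figure D1:**
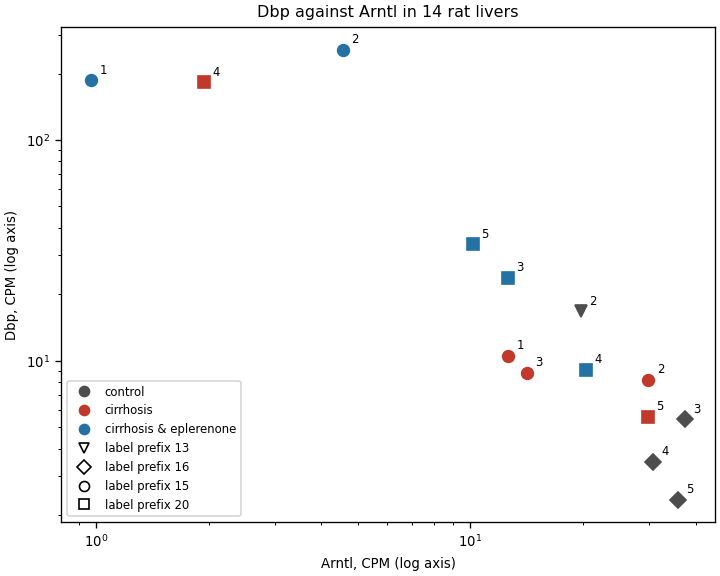
Dbp against Arntl, both in CPM on log axes, with 1 point per liver, the colour for the group, the symbol for the label prefix and the replicate number beside it. The 3 livers with high Dbp lie at the upper left with Dbp of 182 to 257 CPM, and the controls lie at the lower right.

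To set all 10 genes on 1 scale, a score was computed for each liver as the mean log2 CPM of Arntl, Clock, Npas2, Nfil3 and Cry1 minus the mean log2 CPM of Dbp, Tef, Per1, Per2 and Per3. The arms follow general knowledge of when these mRNAs peak, and the score gives a position along this axis and not an hour. Control replicates 2 to 5 had scores of 0.72, 1.70, 2.02 and 2.68. Cirrhosis replicates 1 to 5 had scores of 0.69, 1.28, 0.86, -2.83 and 1.40, and cirrhosis & eplerenone replicates 1 to 5 of -3.22, -2.67, -0.997, 0.66 and -0.33. The scores of all controls were positive, 4 of 5 cirrhosis livers lay within or just below the control range, and 4 of 5 eplerenone livers were negative. The mean ± SD was -1.31 ± 1.61 in cirrhosis & eplerenone and 0.28 ± 1.76 in cirrhosis (n = 5 each), and 1.78 ± 0.82 in the controls (n = 4). From the lowest to the highest liver the score spanned 3.88 in cirrhosis & eplerenone, 4.24 in cirrhosis and 1.96 in the 4 controls with counts. The span in cirrhosis rested on replicate 4, since the other 4 livers lay between 0.69 and 1.40, a narrower range than that of the controls. No p is given for a score over genes chosen with results of these data known.

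**Figure D2:**
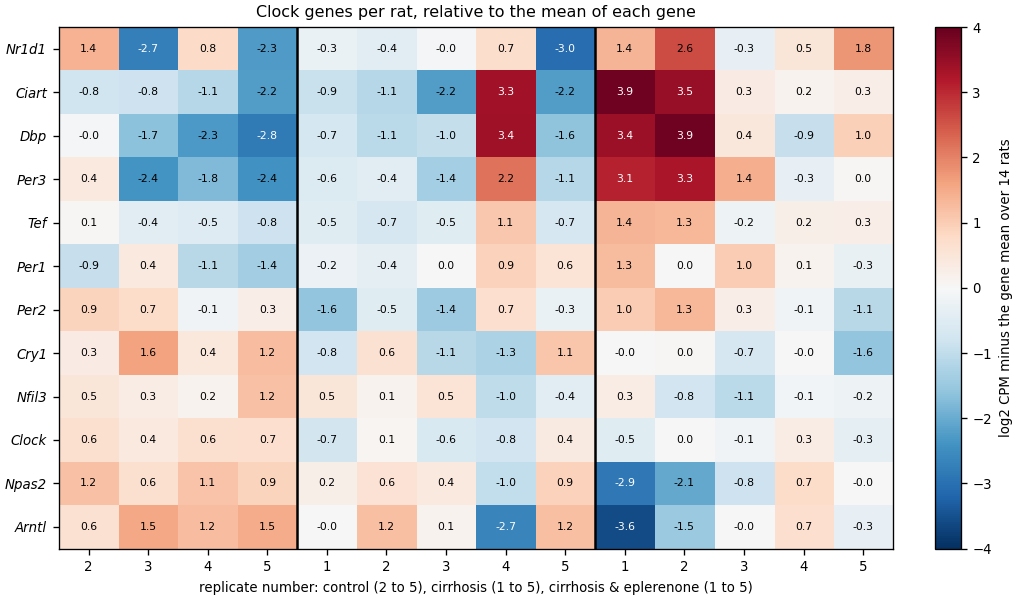
Log2 CPM of each clock gene (rows) in each liver (columns, grouped by treatment and named by replicate number) minus the mean of that gene over the 14 livers, with Nr1d1 and Ciart added. Red columns for Dbp, Per3, Tef and Ciart with blue Arntl and Npas2 mark cirrhosis replicate 4 and cirrhosis & eplerenone replicates 1 and 2.

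Among the output factors, Dbp (ENSRNOG00000021027, chromosome 1), an activator at D-boxes, had the widest range. Its level in control replicates 2 to 5 was 16.8, 5.44, 3.48 and 2.35 CPM. In cirrhosis replicates 1 to 5 it was 10.5, 8.20, 8.85, 182 and 5.59 CPM, and in cirrhosis & eplerenone replicates 1 to 5 it was 187, 257, 23.7, 9.09 and 33.7 CPM. A single cirrhosis liver and a pair of eplerenone livers were far above the rest, and the groups overlapped. Tef (ENSRNOG00000019383, chromosome 7), a relative of Dbp with the same DNA motif, stood at 37.7, 27.2, 25.5 and 20.4 CPM in control. Tef was at 26.0, 22.6, 25.9, 76.2 and 22.8 CPM in cirrhosis and at 94.3, 90.6, 31.5, 42.5 and 44.0 CPM in cirrhosis & eplerenone. The same 3 livers were highest for Tef, though the fold from the lowest to the highest of all livers was 4.62 against 109 for Dbp. Nfil3 (ENSRNOG00000011668, chromosome 17), the repressor that competes for D-boxes, was at 72.1, 63.0, 56.8 and 117 CPM in control. It was at 72.2, 56.1, 74.5, 25.2 and 37.7 CPM in cirrhosis and at 63.2, 30.1, 24.2, 47.4 and 44.6 CPM in cirrhosis & eplerenone. For Nfil3 the 3 livers did not stand together, since cirrhosis & eplerenone replicate 1 had the highest level of its group.

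Among the activators, Arntl (ENSRNOG00000014448, chromosome 1), the obligate partner in the activating pair, was at 19.7, 37.5, 30.7 and 35.9 CPM in control. It was at 12.6, 29.9, 14.2, 1.95 and 29.9 CPM in cirrhosis and at 0.971, 4.57, 12.6, 20.4 and 10.2 CPM in cirrhosis & eplerenone. The lowest value rested on 19 counts, well above the floor of 3, and the order of the group means was control (31.0), cirrhosis (17.7), cirrhosis & eplerenone (9.73), with overlapping neighbours. Npas2 (ENSRNOG00000013408, chromosome 9), which can take the place of CLOCK, was at 47.2, 32.9, 46.9 and 39.1 CPM in control and at 25.1, 31.9, 27.9, 10.7 and 40.3 CPM in cirrhosis. In cirrhosis & eplerenone Npas2 was at 2.81, 5.01, 11.9, 35.2 and 20.9 CPM, so the 3 livers with high Dbp were its 3 lowest. Clock (ENSRNOG00000002175, chromosome 14), the histone acetyltransferase partner of ARNTL, varied far less, by a factor of 2.71 over all livers. It was at 49.2, 41.9, 49.1 and 50.8 CPM in control, at 19.1, 33.1, 20.5, 18.7 and 40.5 CPM in cirrhosis and at 22.3, 31.8, 28.7, 38.8 and 24.9 CPM in cirrhosis & eplerenone. All 10 livers of CCl4-treated rats were below all 4 controls for Clock.

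Among the repressors, Per3 (ENSRNOG00000018413, chromosome 5), a period gene that a mouse clock can lose and still run, was at 6.94, 0.925, 1.47 and 0.890 CPM in control. Per3 was at 3.55, 3.92, 2.00, 23.9 and 2.32 CPM in cirrhosis and at 44.8, 51.2, 14.5, 4.18 and 5.41 CPM in cirrhosis & eplerenone. The 3 livers with high Dbp were again the highest, and the 3 controls with the least Per3 had only 14 to 24 counts. Per1 (ENSRNOG00000007387, chromosome 10), a period gene that is also induced acutely by glucocorticoids and cAMP, was at 18.0, 44.9, 15.9 and 12.9 CPM in control. It was at 29.2, 25.7, 34.6, 64.4 and 50.1 CPM in cirrhosis and at 82.4, 34.3, 68.6, 37.5 and 28.0 CPM in cirrhosis & eplerenone. Control replicate 3 was the 1 control within the range of the CCl4 groups. Per2 (ENSRNOG00000020254, chromosome 9), a period gene whose protein carries CRY into the repressor complex, was at 26.8, 24.2, 13.1 and 17.5 CPM in control, at 4.77, 10.2, 5.23, 23.1 and 12.1 CPM in cirrhosis and at 29.1, 36.9, 17.5, 13.04 and 6.61 CPM in cirrhosis & eplerenone. Cry1 (ENSRNOG00000006622, chromosome 7), the strong repressor of the activating pair, was at 7.72, 18.9, 8.18 and 14.6 CPM in control and at 3.49, 9.38, 2.75, 2.46 and 13.3 CPM in cirrhosis. In cirrhosis & eplerenone Cry1 was at 6.03, 6.26, 3.80, 6.04 and 1.97 CPM, all below the lowest control.

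**Figure D3:**
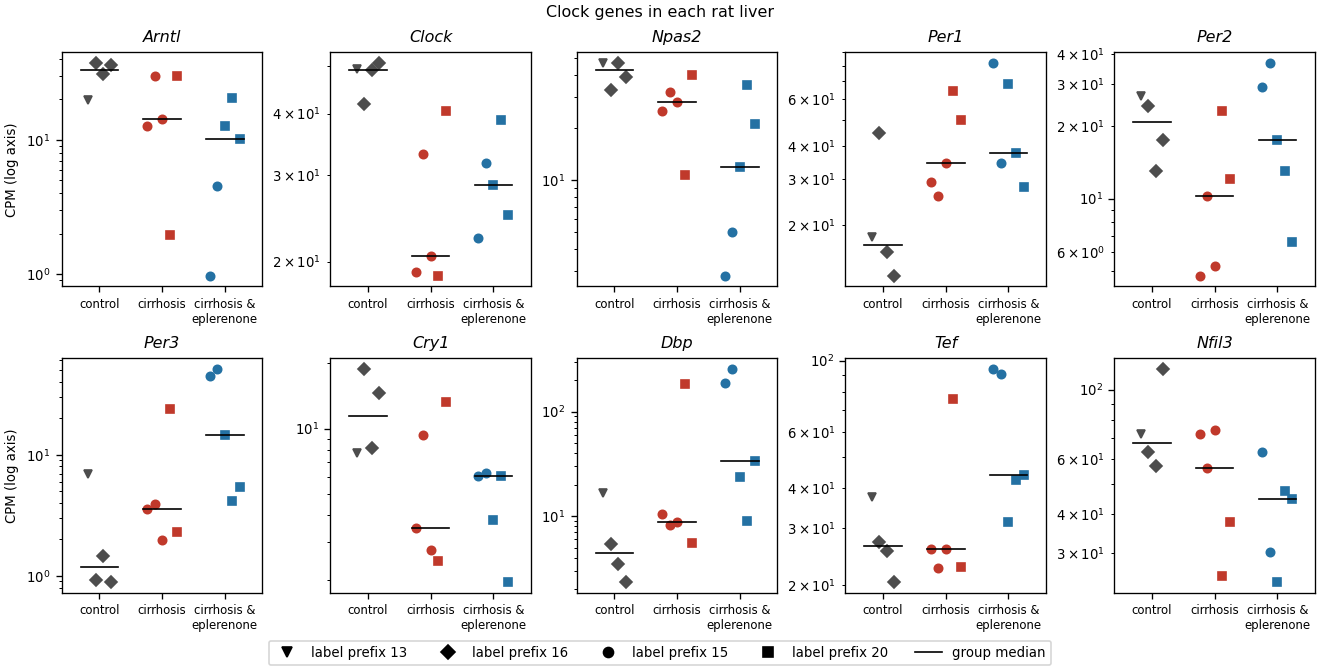
Level of each of the 10 clock genes in CPM (log axis, 1 point per liver) by group, with the group median as a line and the label prefix as the symbol. Clock in both CCl4 groups and Cry1 in cirrhosis & eplerenone do not overlap with control, and Dbp, Per3 and Tef each show 3 high livers.

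To compare the group differences of these genes with those of the whole table, all 14417 genes were tested with edgeR's quasi-likelihood test, and FDR stands for its Benjamini-Hochberg adjusted p. Between cirrhosis and control 1 of the 10 clock genes passed an FDR of 0.05, where 20.2% of all genes did. Clock was lower in cirrhosis, with 26.4 ± 9.88 CPM (SD, n = 5) against 47.7 ± 3.98 CPM (SD, n = 4), a log2FC of -0.86 (SE 0.23, FDR = 0.0213), and it was lower in 5 of 5 rats. With DESeq2, which called 27.8% of all genes, Clock was also the 1 clock gene called (FDR = 0.00716). It was likewise the 1 clock gene whose groups did not overlap, which held for 20.2% of all genes. The call for Clock was lost when control replicate 5 (FDR = 0.0601) or cirrhosis replicate 1, 3 or 4 (FDR = 0.0547, 0.0531 and 0.0561) was left out, and with total counts in place of TMM (log2FC -0.57, FDR = 0.0927), a scaling that moved the median log2FC of all genes from -0.01 to 0.28. Within groups the Clock level had an r of 0.55 with the summed hepatocyte, -0.55 with the stellate and -0.58 with the cholangiocyte markers. Over the same 14 livers the r was -0.164 with the macrophage, -0.298 with the endothelial and -0.084 with the lymphocyte markers. These sums weigh abundant markers such as Alb and Col3a1 most. The part of cell composition in the difference of Clock was not tested.

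The other 9 clock genes had an FDR of 0.128 or more between cirrhosis and control. Dbp had a log2FC of 2.62 (SE 1.21, FDR = 0.128), which rested on cirrhosis replicate 4: without that liver it was 0.26. Per3 went from 1.48 (SE 0.94, FDR = 0.258) to 0.23 without the same liver, and Tef from 0.32 to -0.17. The log2FC were -0.97 for Cry1, -0.88 for Per2, -0.80 for Arntl, -0.61 for Npas2, -0.54 for Nfil3 and 0.83 for Per1. The median over the 10 genes was -0.58, beside -0.01 over all genes.

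Between cirrhosis & eplerenone and cirrhosis none of the 10 clock genes was called by edgeR or DESeq2, none had an unadjusted p under 0.05 by edgeR, which 2076 of all 14417 genes had, and none had groups that did not overlap. Over all genes edgeR called 0.0139%, DESeq2 0.513%, and 0.964% did not overlap, so few genes of any kind passed in this comparison. The 3 largest log2FC were 1.75 for Per3 (SE 0.84, FDR = 0.353), 1.24 for Dbp (SE 1.04, FDR = 0.547) and 0.89 for Per2 (SE 0.46, FDR = 0.367). Arntl had a log2FC of -0.86 and Npas2 of -0.84, and Clock of 0.15 (SE 0.22, FDR = 0.743). Leaving out 1 liver moved the log2FC of Dbp between 0.55, without cirrhosis & eplerenone replicate 2, and 3.60, without cirrhosis replicate 4, and that of Per3 was 3.003 without the latter. The median log2FC over the 10 genes was 0.23, beside 0.01 over all genes.

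Between cirrhosis & eplerenone and control edgeR called none of the 10 clock genes, where it called 5.22% of all genes, but 9 of the 10 had an unadjusted p under 0.05, as had 2952 of all 14417 genes. The exception was Per2, with a log2FC of 0.01. Dbp had a log2FC of 3.86 (SE 1.28, FDR = 0.0932), Per3 of 3.23 (SE 0.99, FDR = 0.0732), Tef of 1.13 (SE 0.41, FDR = 0.128) and Per1 of 1.13 (SE 0.41, FDR = 0.131). Arntl had -1.67 (SE 0.68, FDR = 0.171), Npas2 -1.45 (SE 0.54, FDR = 0.134), Cry1 -1.36 (SE 0.50, FDR = 0.133), Nfil3 -0.88 (SE 0.33, FDR = 0.143) and Clock -0.70 (SE 0.23, FDR = 0.0949). DESeq2, which called 10.6% of all genes, called Per3 (FDR = 0.0131) and Dbp (FDR = 0.0133). Clock and Cry1 did not overlap between the groups, where 10.9% of all genes did not. Without cirrhosis replicate 4, which belongs to neither group but enters the filter, the TMM scaling and the shared estimate of the spread, edgeR called Per3 (FDR = 0.0375), Dbp (FDR = 0.0274) and Tef (FDR = 0.0423). The median log2FC over the 10 genes was -0.35, beside 0.01 over all genes. This comparison and that of cirrhosis with control share the 4 controls.

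**Figure D4:**
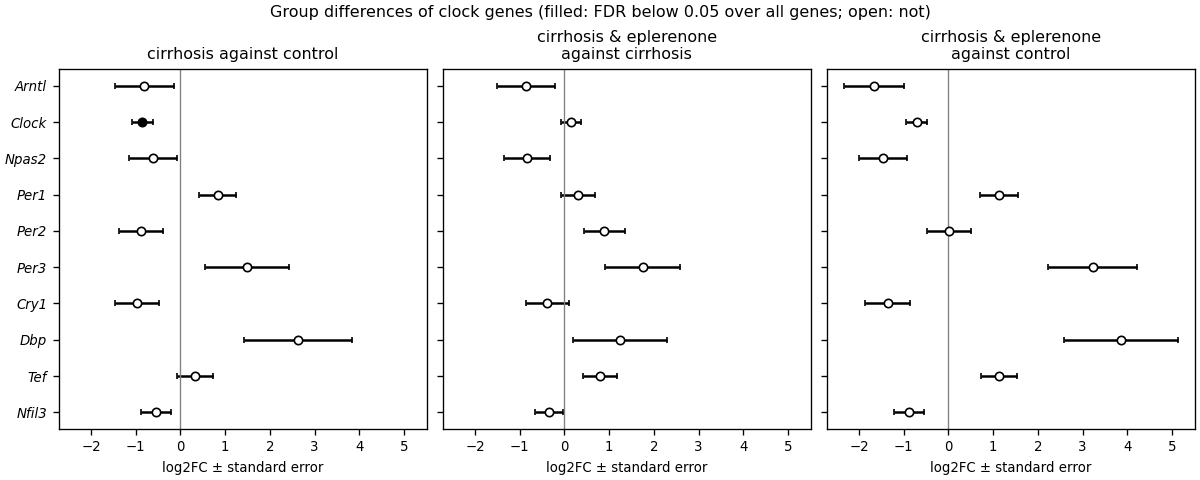
Log2FC (point) ± standard error (bar) of each clock gene in the 3 comparisons, filled where the FDR of edgeR over all genes was below 0.05. Clock in cirrhosis against control, at -0.86, is the 1 filled point, and the bars are widest for Dbp and Per3.

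The label prefix split the eplerenone rats along the same axis. Within prefix 15, Dbp was at 8.20 to 10.5 CPM in the 3 cirrhosis livers and at 187 and 257 CPM in the 2 eplerenone livers. Within prefix 20, Dbp was at 5.59 and 182 CPM in the 2 cirrhosis livers and at 9.09 to 33.7 CPM in the 3 eplerenone livers. The liver with the most Dbp was thus an eplerenone liver in prefix 15 and a cirrhosis liver in prefix 20. The scores were 0.69 to 1.28 against -3.22 and -2.67 within prefix 15, and -2.83 and 1.40 against -0.997 to 0.66 within prefix 20. When the rats of prefix 15 were tested alone, 4 clock genes were called between cirrhosis & eplerenone and cirrhosis, where 0.607% of all genes were. These were Dbp (log2FC 4.597, SE 0.28, FDR = 0.0059), Per3 (log2FC 3.92, SE 0.33, FDR = 0.0164), Tef (log2FC 1.90, SE 0.21, FDR = 0.0291) and Npas2 (log2FC -2.85, SE 0.35, FDR = 0.0294). Each comparison within a prefix had 2 livers on one side. When the rats of prefix 20 were tested alone no clock gene was called by edgeR, none had an unadjusted p under 0.05, and 0% of all genes were called. The log2FC of Dbp was -2.08 there. The difference between the prefixes itself, tested as an interaction, was -6.64 for Dbp (FDR = 0.287), -4.59 for Per3 (FDR = 0.344), -2.75 for Per2 (FDR = 0.344), 2.75 for Npas2 (FDR = 0.374) and -2.20 for Tef (FDR = 0.344), all on the log2 scale and as prefix 20 minus prefix 15. These 5 had an unadjusted p under 0.05, but no gene of the table passed in this test of edgeR (0%), so a difference of the eplerenone effect between the prefixes was not shown. With the prefix as a term edgeR called no clock gene either, and the 1 with an unadjusted p under 0.05 was Npas2 (log2FC -1.47, FDR = 0.540).

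**Figure D5:**
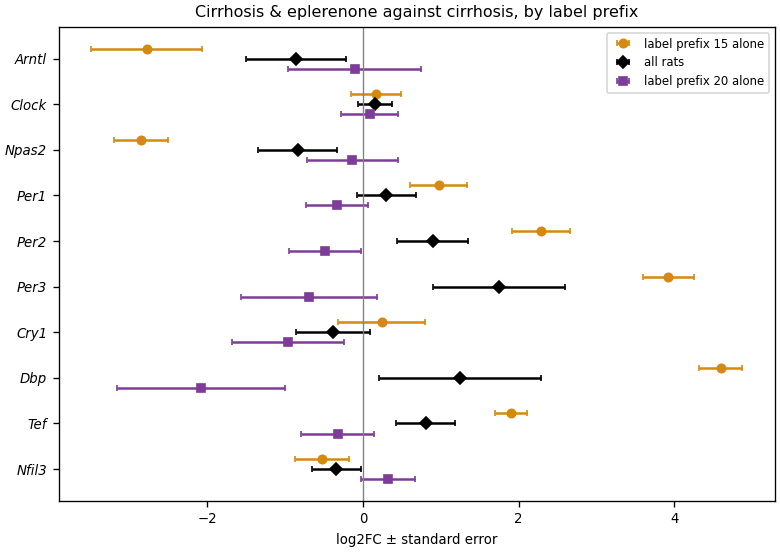
Log2FC (point) ± standard error (bar) between cirrhosis & eplerenone and cirrhosis for each clock gene, in all rats and in the rats of label prefix 15 or 20 alone. Dbp lies at 4.597 in prefix 15, at 1.24 in all rats and at -2.08 in prefix 20, and Clock lies near 0 in each.

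To see which clock genes moved together from rat to rat, deviations from the group means of log2 CPM were correlated over the 14 livers. Each point is 1 rat and 1 library, and the values are descriptions, given with no p because the genes were chosen with results of these data known. With Arntl, Dbp had an r of -0.89 (rho -0.86), Tef of -0.89 (rho -0.87), Npas2 of 0.87 (rho 0.75), Per3 of -0.81 (rho -0.68) and Clock of 0.67 (rho 0.62). Without the livers farthest on Arntl, cirrhosis replicate 4 and cirrhosis & eplerenone replicate 1, these r were -0.85, -0.75, 0.71, -0.69 and 0.56. The 3 livers with high Dbp lay apart from the others, so the r were also computed over the other 11: they were -0.72 for Dbp, -0.49 for Tef, 0.40 for Npas2, -0.45 for Per3 and 0.80 for Clock. Dbp and Arntl thus also had a negative r among the 11 livers without high Dbp, while the r of Tef, Npas2 and Per3 with Arntl lay between -0.5 and 0.5 there. With Dbp, over the same 11 livers, the r was 0.74 for Per3, 0.67 for Tef and -0.33 for Npas2. The 11 livers were set apart by Dbp itself after seeing the data, so these r describe them only. Cry1 had an r of 0.34 (rho 0.44) over all livers and of 0.92 over the 11, and Per2 of -0.55 (rho -0.43) and 0.54, so that their course beside Arntl rested on which livers were counted. Per1 had an r of -0.42 (rho -0.25) and Nfil3 of 0.09 (rho 0.01), and without the 2 farthest livers Per1 turned to 0.24. A principal component analysis of the 10 genes placed 56.0% of the variance within groups on the first component and 20.6% on the second. On the first, Dbp, Tef, Per1, Per2 and Per3 had positive weights and Arntl, Npas2, Clock, Nfil3 and Cry1 negative ones. The weights of Cry1 (-0.09) and Nfil3 (-0.15) were small beside those of Dbp (0.41) and Arntl (-0.39), so these 2 genes hardly took part in it.

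The spread of the clock genes between rats of a group was set beside that of all genes. The SD of log2 CPM within groups was 1.84 for Dbp, 1.48 for Per3, 1.40 for Arntl and 0.99 for Npas2, against a median of 0.45 over all 14417 genes. Dbp was at percentile 99.6 of all genes, Per3 at 98.6, Arntl at 97.96 and Npas2 at 89.99. The SD of Per2, Cry1, Per1, Tef and Nfil3 lay between 0.57 and 0.85, and 9 of the 10 were above the median. Clock, with 0.37 and percentile 36.4, was the exception, and it was also the gene with the one group difference called. Within control alone the SD was 0.42 for Arntl, 0.13 for Clock, 1.20 for Dbp and 1.33 for Per3, beside a median of 0.29 over all genes.

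Of 20 symbols listed for further clock genes, 17 were tested, and 2 were called between cirrhosis and control, where 20.2% of all genes were. Csnk1e, a casein kinase that phosphorylates PER, was higher (log2FC 0.96, SE 0.17, FDR = 0.0023), and Arntl2, a paralog of Arntl, was lower (log2FC -2.33, SE 0.51, FDR = 0.0073). Csnk1e was at 9.48 to 11.8 CPM in control and at 17.1 to 27.3 CPM in cirrhosis, with no overlap. Between cirrhosis & eplerenone and control Csnk1e was called again (log2FC 0.97, SE 0.17, FDR = 0.0059), where 5.22% of all genes were. Between the CCl4 groups none of the 17 was called, where 0.0139% of all genes were. There 5 of the 17 had an unadjusted p under 0.05, as had 2076 of all 14417 genes. The median log2FC of the 17 was 0.05, 0.46 and 0.44 in cirrhosis against control, in cirrhosis & eplerenone against cirrhosis and against control. Over all genes it was -0.01, 0.01 and 0.01. With the score of the 10 genes, 14 of the 17 had a negative r within groups, with a median of -0.41, and 7 had an absolute r above 0.5. Ciart, an inhibitor of the activating pair, had an r of -0.94 (rho -0.89), Nr1d2 of -0.75, Csnk1e of -0.71, Cry2 of -0.66, Usp2 of -0.57 and Nr1d1 of -0.50. Rora went the other way with 0.51, and Hlf had -0.26. These r are over 14 livers that share library and depth with the score. Ciart had at most 3 counts, and thus no more than the floor, in all 4 controls and in 4 of 5 cirrhosis livers, and stood at 5.03 to 7.31 CPM in the 3 livers with high Dbp, so its r rested on few livers. Over the 11 livers without high Dbp the r of Ciart was -0.54, though most of these livers held it at no more than the floor. There the r was -0.44 for Nr1d2, -0.44 for Csnk1e, 0.54 for Cry2, 0.12 for Usp2, -0.41 for Nr1d1, 0.35 for Rora and 0.34 for Hlf.

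Nr1d1, the repressor of Arntl whose mRNA peaks earlier in the day than Dbp and Per, separated the controls. It was at 70.3 and 45.4 CPM in control replicates 2 and 4 and at 3.93 and 5.53 CPM in control replicates 3 and 5. Nr1d2 showed the same pairs, with 49.3 and 34.8 CPM against 10.6 and 13.5 CPM, and Cry1 the opposite, with 7.72 and 8.18 CPM against 18.9 and 14.6 CPM. The controls thus differed among themselves in these genes although their scores were all positive, and the pairs did not follow the label prefix, since replicates 3 to 5 share prefix 16. In the CCl4 groups Nr1d1 ran from 3.15 CPM in cirrhosis replicate 5 to 163 CPM in cirrhosis & eplerenone replicate 2.

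Since time of day can move metabolic genes, 20 symbols of genes known to follow the clock in liver were listed, of which 17 were tested. Between cirrhosis and control 1 rose and 6 fell by edgeR, which called 20.2% of all genes. Wee1, a cell cycle kinase with E-boxes in its promoter, was higher (log2FC 1.64, SE 0.53, FDR = 0.0420). Pdk4, an inhibitor of pyruvate dehydrogenase, was lower (log2FC -2.92, SE 0.77, FDR = 0.0178), as were Ppara, the receptor that drives fatty acid oxidation (log2FC -2.03, SE 0.45, FDR = 0.0078), Insig2, a brake on cholesterol synthesis (log2FC -1.88, SE 0.49, FDR = 0.0172), and Slc45a3, a solute carrier of the plasma membrane (log2FC -1.67, SE 0.40, FDR = 0.0112). The other genes that fell were Lpin1, a phosphatidate phosphatase, and Nr1i3, a xenobiotic receptor. None of the 17 was called between cirrhosis & eplerenone and cirrhosis or control, where 0.0139% and 5.22% of all genes were. In each, 7 had an unadjusted p under 0.05, as had 2076 and 2952 of all 14417 genes. The median log2FC of the 17 was -0.73, 0.69 and 0.21 in the 3 comparisons, beside -0.01, 0.01 and 0.01 over all genes.

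The metabolic genes did not all follow the score of the clock genes from rat to rat. Of the 17, 6 had an absolute r above 0.5 with the score over deviations from the group means of 14 livers. Among these, Por, the reductase that feeds electrons to cytochromes P450, had an r of -0.82 (rho -0.71), Slc45a3 of 0.64 (rho 0.53), Insig2 of 0.55 (rho 0.62) and Nampt, an enzyme of NAD synthesis, of -0.54 (rho -0.34). Without the 2 livers farthest on the score the r was -0.69 for Por, 0.50 for Slc45a3, 0.36 for Insig2 and -0.33 for Nampt. Por was at 754 CPM in cirrhosis & eplerenone replicate 1, the liver with the lowest score, and at 74.7 CPM in control replicate 5, the liver with the highest. Pdk4 had an r of -0.21, Ppara of -0.42 and Lpin1 of 0.22 over all livers. Over the 11 livers without high Dbp the r was 0.81 for Pdk4, 0.81 for Pck1, 0.80 for Insig2 and -0.68 for Por, where Pdk4 and Pck1 had -0.21 and 0.04 over all 14. These values are descriptions over rats that differ in more than the clock, and the part of the hour of collection in them was not tested.

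Per1 is also a target of glucocorticoids and of acute stimuli, so genes of both kinds were examined. Of 12 glucocorticoid-responsive genes 2 rose and 1 fell between cirrhosis and control: the metallothioneins Mt2A (log2FC 3.10, FDR = 0.0183) and Mt1 (log2FC 2.58, FDR = 0.0198), and Zbtb16, a zinc finger repressor (log2FC -2.28, FDR = 0.0046). Of 9 immediate early genes 2 rose, Atf3 (log2FC 1.82, FDR = 0.0370) and Btg2 (log2FC 1.21, FDR = 0.0142). Of all genes 20.2% were called in this comparison. Neither list had a gene called by edgeR in cirrhosis & eplerenone against cirrhosis or control, where 0.0139% and 5.22% of all genes were called. In these, 4 glucocorticoid-responsive genes each, and 0 and 5 immediate early genes, had an unadjusted p under 0.05. Of all 14417 genes 2076 and 2952 had one. Against cirrhosis the 4 were Klf9 (log2FC 1.91), Zbtb16 (1.84), Fkbp5 (1.21) and Errfi1 (0.74), all higher, with an FDR of 0.312 or more. The summed level of the immediate early genes was 103 to 402 CPM in control, 240.0 to 507 CPM in cirrhosis and 253 to 438 CPM in cirrhosis & eplerenone, and its r with the score was -0.04. That of the glucocorticoid-responsive genes was 2273 to 3468 CPM in control, 2637 to 3969 CPM in cirrhosis and 2134 to 4818 CPM in cirrhosis & eplerenone. Its r with the score was -0.37, and this sum weighs abundant genes such as Tat, Errfi1 and Mt2A most.

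The genes whose course over the 14 livers was most like that of Dbp, among 12798 genes with a mean of at least 1 CPM and by r over deviations from the group means, were Tef (0.94), Ciart (0.93), Per3 (0.92), Klf16 (0.91) and Rlim (0.89). The most opposite were Arntl (-0.89), Lnx2 (-0.87), Leo1 (-0.86), St8sia1 (-0.85) and Tsen15 (-0.85). For Arntl the most alike were St8sia1 (0.93), Lnx2 (0.90), Zfp213 (0.88), Npas2 (0.87) and Srcin1 (0.87), and the most opposite Por (-0.92), Tef (-0.89), Ciart (-0.89), Ppl (-0.89) and Dbp (-0.89). Arntl thus held the last of the 12798 places in the order by likeness to Dbp. These ranks were taken from the same livers as the values above.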

How the data were processed

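Liver RNA of 14 rats was analysed (control n = 4, cirrhosis n = 5, cirrhosis & eplerenone n = 5). Per the labels and the study's methods, poly(A) RNA (RIN above 7) was sequenced with paired reads of 150 bases, reads were mapped to rn6 with HISAT2 2.1.0, and exonic reads were counted with featureCounts 2.0.0, multi-mapping reads included, with genes of Ensembl 101. Rats were picked for sequencing by the success of cirrhosis induction, of eplerenone, or of both. The authors deposited integer counts per gene, with no scaling and no filter; 11341 of 32623 genes had no count in these samples. Whether counting used the strand is not given in the sources used here, so antisense neighbours cannot be separated.

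From these counts, edgeR 4.0.16 (R 4.3.3) filtered genes with filterByExpr (minimum count 10), scaled libraries by TMM and fitted the 3 groups in 1 quasi-likelihood model; Benjamini-Hochberg adjustment covered all 14417 genes kept, with an FDR threshold of 0.05. P-values measure the spread between these rats. Log2 CPM used a prior count of 2. DESeq2 1.42.0, other scalings, filters and sample sets were alternatives. No 2 replicates agreed within sampling noise (lowest chi-square per degree of freedom 25.2). The steps were tested on simulated data.

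The members and lists were chosen with earlier results of these data known. All 10 members are named. From lists of further clock, clock-output, glucocorticoid-responsive and immediate early genes, genes past the test are named, at most 6 a list, and values or correlations with the score are given for some others (such as Nr1d1, Nr1d2, Ciart and Por), chosen after their values were seen. The 5 genes most like and most opposite to Dbp and to Arntl are also named. Correlations were planned with permutation p-values, which are not printed, since they would be adjusted over genes chosen with results known. Symbols that matched no row (Chrono, Car, Dec1) or were too low (Rorb and Elovl3 among them) were not tested. Chrono, Car and Dec1 are other names of Ciart, Nr1i3 and Bhlhe40, in that order. Those genes were listed and tested under the latter symbols. Some genes of the lists are counted but not reported here. The split of correlations by Dbp above 100 CPM and the comparison of eplerenone rats with control within a label prefix were added after seeing the data. Promoters and motifs came from RefSeq tables of GRCr8.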

Additional observations from a re-analysis of the deposited data

Results flagged for a closer look

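Of 33 groups of values (10 clock genes and the score in 3 groups of rats), 6 held a liver far from the others by Dixon's criterion. Chance gives this in about 1 in 20 groups if the values are normal and the groups independent. Here the genes were taken as CPM without logs, several moved together and the score is built from them. The rate is therefore no measure of how unusual 6 of 33 is. Cirrhosis replicate 4 accounted for 4 of the 6, with 182 CPM of Dbp, 23.9 CPM of Per3 and 76.2 CPM of Tef, each the highest of its group, and with a score of -2.83, the lowest of its group. Its Arntl, at 1.95 CPM, was the lowest of the group and did not meet the criterion. In control, replicate 3 was far above the others for Per1, with 44.9 CPM, and replicate 2 for Per3, with 6.94 CPM, and replicate 2 is the 1 control with label prefix 13. The eplerenone livers with high Dbp did not meet the criterion, since a pair of livers was high together.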

How the results depend on the processing

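Between cirrhosis and control, 1 clock gene was called. With total counts in place of TMM and with the cirrhosis rats of label prefix 20 alone it was 0, with 4 samples per group (without cirrhosis replicate 5 and cirrhosis & eplerenone replicate 3) it was 2, with Cry1 added, and with the cirrhosis rats of prefix 15 alone it was 3, with Npas2 and Per2 added. Leaving out 1 rat gave 0 to 2: 0 without control 5 or cirrhosis 1, 3 or 4, and 2 without control 3 (Per1) or cirrhosis 5 (Cry1). Between cirrhosis & eplerenone and cirrhosis the count was 0, and 4 in prefix 15 alone. Between cirrhosis & eplerenone and control it was 0, and it was 1 with total counts (Per3), 2 with DESeq2 and 2 with only the 2 groups in the fit (Clock and Dbp). Within prefixes, an alternative added after seeing the data, it was 5 in prefix 15 and 2 in prefix 20, and leaving out 1 rat gave 0 to 3. The cause of these changes was not tested.

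No direction of a clock gene turned with the scaling, although total counts moved the median log2FC of all genes to 0.28 and 0.32 in the comparisons with control. Directions of log2FC that were not called did turn. Tef in cirrhosis against control was -0.17 without cirrhosis replicate 4 (range -0.17 to 0.50 when 1 rat was left out) and -0.14 in prefix 15. Cry1 in cirrhosis & eplerenone against cirrhosis was 0.082 without cirrhosis replicate 5 (range -0.59 to 0.082), 0.14 with 4 samples per group and 0.24 in prefix 15. In prefix 20 alone this comparison gave -0.33 for Per1, -0.49 for Per2, -0.70 for Per3, -2.08 for Dbp, -0.33 for Tef and 0.32 for Nfil3. Per2 in cirrhosis & eplerenone against control was -0.69 in prefix 20 and ran from -0.30 to 0.24 when 1 rat was left out.

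With the replicate number of the titles as a block, the counts of called clock genes were 1, 0 and 0, and the log2FC of Per2 in cirrhosis & eplerenone against control was -0.076. The numbers did not pair the rats: of 13 pairs with the same number 3 had deviations that correlated above 0.1, and r ran from -0.33 to 0.19.

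The ranges of the score within the groups became 3.64, 8.86 and 8.59 for control, cirrhosis and cirrhosis & eplerenone when only Arntl minus Dbp was used. Without the 2 livers farthest on Arntl, r with Arntl was 0.71 for Npas2, 0.24 for Per1, -0.11 for Per2 and -0.75 for Tef. Without the 3 livers above 100 CPM of Dbp it was 0.40 for Npas2, 0.21 for Per1, 0.54 for Per2, -0.45 for Per3, 0.92 for Cry1, -0.72 for Dbp and -0.49 for Tef. With 4 or 5 rats per group and SD of log2 CPM above 1 for Dbp, Per3 and Arntl, differences that missed the threshold are not shown to be absent.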
